A study of Homo sapiens with 6 samples.

Results

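A set of 10 genes for stress granule and related RNA-binding proteins was followed in SW480 cells, an established human colorectal cancer line, transfected with an siRNA to the integrin β4 gene ITGB4 or with a negative control siRNA. The 10 genes were taken by symbol from a table of 58735 genes: FMR1, FXR1 and FXR2, G3BP1 and G3BP2 with their partners CAPRIN1 and USP10, HABP4 and SERBP1, and TIA1. FMR1, G3BP2 and HABP4 were chosen because they differed in this same comparison, so their differences are a description and support nothing further. Mean FMR1 with ITGB4 siRNA differed from control siRNA by -33.7%, while G3BP2 was 38.6% higher and HABP4 49.0% higher. Their paralogs differed less, FXR1 by 5.47%, FXR2 by -1.11%, G3BP1 by -7.54% and SERBP1 by -11.7%.

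There were 3 libraries with ITGB4 siRNA and 3 with control siRNA, described by the submitters as biological replicates. Both groups were SW480 cells of the genotype labelled WT, and per the labels they differed in the transfected siRNA. The labels give no siRNA sequence, no time after transfection and no strandedness, and name only 1 siRNA against ITGB4. RNA was captured on poly-T beads, and values are FPKM, in which fragments are divided by gene length and library size. The length is 1 deposited value per gene, whichever transcripts the cells used. The order of genes by level, and sums and shares over genes, depend on these lengths. The libraries held 13715266 to 15496274 reads. ITGB4 was at 41.1, 38.1 and 37.9 FPKM with ITGB4 siRNA, against 74.3, 63.8 and 69.8 FPKM with control siRNA. Of 6 markers of colorectal epithelium 5 were at 1 FPKM or more (KRT18 at 567.5 FPKM), while VIL1 was at 0.706 FPKM. Of 12 markers of leukocytes, fibroblasts and endothelium, all were under 1 FPKM and 5 were at 0 in every library.

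Stress granules are cytoplasmic condensates of stalled messenger RNAs and RNA-binding proteins that form when translation initiation is blocked. G3BP1 and G3BP2 are the scaffold proteins on which they assemble. CAPRIN1 binds G3BP and favours assembly, and USP10 competes for the same site and opposes it. FMRP, the product of FMR1, and its homologs FXR1 and FXR2 bind messenger RNAs and polysomes and are found in the granules, as is TIA1. HABP4 and SERBP1 are paralogous RNA-binding proteins that associate with ribosomes, and HABP4 can enter stress granules. Levels of messenger RNA do not show whether granules formed.

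Short words of the 3′ UTR, picked by these same fold changes, differed between G3BP2 and G3BP1 and between HABP4 and SERBP1. FMR1 and FXR1 held the same word. An earlier scan of 3′ UTRs against the fold changes of these same libraries had picked out ATTGGAT and TTGGATA for lower genes and TCGGAGA and CGGAGAA for higher genes. The members were part of that scan, so a word in a member is no independent evidence. The longest annotated 3′ UTR of FMR1, at 2282 bases, holds ATTGGAT once. G3BP2 holds TCGGAGA and CGGAGAA overlapping at 1 site, and HABP4 holds TCGGAGA once. None of the other 8 members holds TCGGAGA or CGGAGAA, and neither G3BP2 nor HABP4 holds ATTGGAT or TTGGATA. The sites of the 3 genes are shown with a site of a paralog of each, 5′ to 3′ on the transcript strand, with the words in capitals.
FMR1 (chrX:147950538-147950566, plus strand): agcgacaacagATTGGATtttatgttgac
FXR1 (chr3:180980416-180980444, plus strand): gtaccctcttaATTGGATtaactgtaaaa
G3BP2 (chr4:75644092-75644121, minus strand): tactgcaatttTCGGAGAAaagaacagcag
G3BP1 (chr5:151808486-151808514, plus strand): tgtttgaaaacATTGGATtcgtcttctct
HABP4 (chr9:96490459-96490487, plus strand): cagctgagtttTCGGAGAccaagaaatta
SERBP1 (chr1:67410266-67410294, minus strand): cctaaatgtgtATTGGATttcgaaaatac
The sequences and coordinates are from GENCODE release 29 on GRCh38. The site of FMR1 is in the 3′ UTR of 5 of its 12 annotated coding transcripts with a 3′ UTR, that of G3BP2 in 2 of 3 and that of HABP4 in 2 of 2. The site of FXR1 is in 1 of 7, the longest, at base 4135 of a 6461-base UTR. The one shown for G3BP1 is in 1 of 2, and the one shown for SERBP1 is in 1 of 4. Which transcripts these cells used cannot be read from values per gene.

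Of the other members, CAPRIN1 holds both words of the first pair in 1 overlapping site, SERBP1 holds each of them once, TIA1 holds TTGGATA once and G3BP1 holds ATTGGAT at 2 sites. FXR2, with a 600-base UTR, and USP10, with 499 bases, hold none of the 4 words, nor does ITGB4 itself. The words were searched on the transcript strand of 19133 protein-coding genes, and ATTGGAT or TTGGATA was found in 15.7% of them and TCGGAGA or CGGAGAA in 3.79%. Of these 19133 genes, 10556 were tested. Among the 10556, 1835 with the first pair had a median log2 fold change of -0.02. The 441 with the second pair had 0.03, and the 8380 with none of the words had -0.002. A gene with words of both pairs was counted in both. The words were picked by these same fold changes, so the signs of the medians are no independent evidence for them. FMR1, at -0.53, lay outside the 5th to 95th percentile of the first pair (-0.18 to 0.11). G3BP2 and HABP4, at 0.45 and 0.49, lay outside that of the second (-0.11 to 0.25). FMR1, G3BP2 and HABP4 also lay outside the range of genes with none of the words (-0.14 to 0.14). They were chosen for their differences in this comparison, so nothing is read from their place outside these ranges. FXR1, with the same word as FMR1, was at 0.07.

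**Figure D1:**
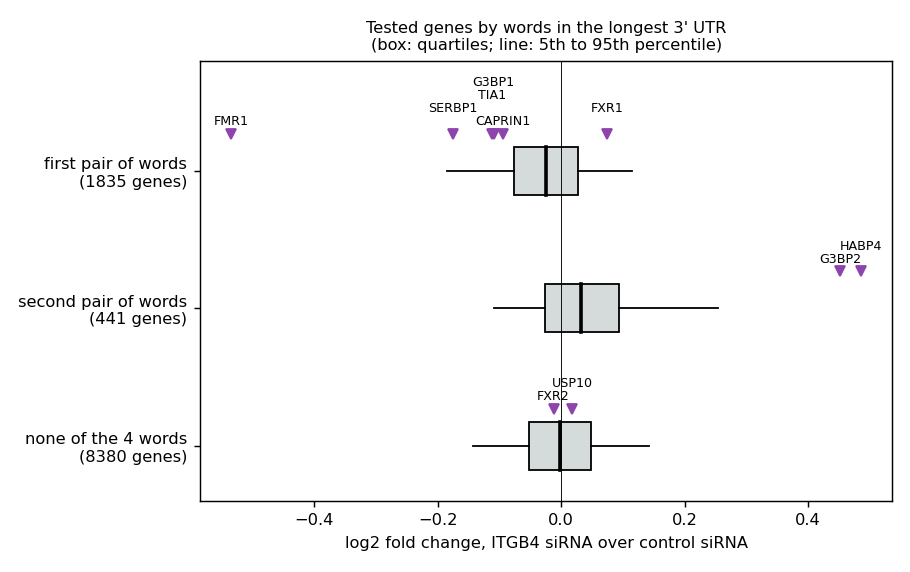
Log2 fold change (ITGB4 siRNA over control siRNA, x axis) of tested genes by the words in their longest 3′ UTR, with boxes for quartiles, lines for the 5th to 95th percentile, and triangles for the 10 genes. The first pair is ATTGGAT and TTGGATA, the second TCGGAGA and CGGAGAA. FMR1 (-0.53) lies left of the range of the first pair, and G3BP2 (0.45) and HABP4 (0.49) lie right of that of the second. These genes were chosen by this comparison and the words by a scan of the same fold changes, so nothing is read from either.

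FMR1 encodes FMRP, a translational regulator whose loss causes fragile X syndrome. It was at 7.88, 7.95 and 8.35 FPKM in ITGB4 siRNA replicates 1, 2 and 3, against 11.1, 13.2 and 12.1 FPKM in control siRNA replicates 1, 2 and 3. The highest ITGB4 siRNA library was below the lowest control siRNA library. The group means were 8.06 ± 0.257 FPKM with ITGB4 siRNA and 12.1 ± 1.06 with control siRNA (SD, n = 3 each), from 973 to 1749 reads per library. The log2 fold change of FPKM + 1 was -0.53 (SE 0.0689, 95% interval -0.70 to -0.37). FMR1 (ENSG00000102081) lies on GRCh38 chromosome X at 147911951 to 147951125, plus strand.

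FXR1, a homolog with the same kind of RNA-binding domains and high expression in muscle, was at 14.4, 15.5 and 15.6 FPKM with ITGB4 siRNA and 13.1, 15.4 and 14.6 FPKM with control siRNA. FXR2, the other homolog, was at 21.3, 19.9 and 20.5 FPKM with ITGB4 siRNA and 22.6, 19.0 and 20.8 FPKM with control siRNA. The groups overlapped for both. The log2 fold change was 0.07 for FXR1 (95% interval -0.09 to 0.24) and -0.01 for FXR2 (-0.18 to 0.15), neither called by limma (adjusted p = 0.998 each). Both intervals lie above that of FMR1, but FMR1 was chosen by this comparison, so nothing is read from that. FXR2 overlaps MPDU1 by 1560 bases on the other strand, at 20.5 FPKM with ITGB4 siRNA and 19.35 with control siRNA, and without strandedness reads there cannot be told apart.

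Within a library, FMR1 was lower relative to FXR1 after ITGB4 siRNA. The log2 ratio of FMR1 to FXR1 was -0.87, -0.96 and -0.90 with ITGB4 siRNA, against -0.23, -0.22 and -0.28 with control siRNA. The groups did not overlap and their means differed by -0.67, with SDs of 0.0448 with ITGB4 siRNA and 0.0291 with control siRNA. The ratio to FXR2 differed by -0.58, but its control siRNA values were spread from -1.02 to -0.52. The 3 homologs summed to 43.8 ± 0.614 FPKM with ITGB4 siRNA and 47.3 ± 0.466 with control siRNA (SD, n = 3 each). FMR1 made up 18.4% ± 0.364 of this sum with ITGB4 siRNA and 25.7% ± 2.01 with control siRNA (SD, n = 3 each). These ratios were not tested, since FMR1 was chosen by the comparison they are built on.

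G3BP2, the less abundant of the granule scaffolds in these cells, was at 25.5, 24.96 and 26.3 FPKM with ITGB4 siRNA, against 17.1, 19.5 and 18.8 FPKM with control siRNA. Every ITGB4 siRNA library lay above every control siRNA library. The means were 25.6 ± 0.657 FPKM with ITGB4 siRNA and 18.4 ± 1.22 with control siRNA (SD, n = 3 each), from 1817 to 2938 reads per library, a log2 difference of 0.45 (SE 0.0581; interval at 95% confidence 0.31 to 0.59). G3BP2 (ENSG00000138757) lies on chromosome 4 at 75642782 to 75724525, minus strand.

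G3BP1 was at 42.9, 45.1 and 45.2 FPKM with ITGB4 siRNA, against 45.0, 50.4 and 48.7 FPKM with control siRNA. The groups overlapped, and its log2 fold change had the other sign, at -0.11 (95% interval -0.24 to 0.02; adjusted p = 0.931 by limma). The log2 ratio of G3BP2 to G3BP1 was -0.75, -0.85 and -0.78 with ITGB4 siRNA and -1.40, -1.37 and -1.38 with control siRNA, a difference of 0.59. G3BP2 accounted for 36.6% ± 0.842 of the summed G3BP FPKM with ITGB4 siRNA and 27.7% ± 0.192 with control siRNA (SD, n = 3 each). The sum itself was 70.0 ± 1.55 FPKM with ITGB4 siRNA and 66.5 ± 3.97 with control siRNA, with overlapping groups. G3BP1 overlaps ATOX1 by 1488 bases on the other strand (10.3 FPKM with ITGB4 siRNA, 9.98 with control siRNA), and reads there cannot be told apart either.

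The G3BP partners were abundant. CAPRIN1 was at 64.9, 67.4 and 67.9 FPKM with ITGB4 siRNA, against 66.8, 74.6 and 72.7 FPKM with control siRNA, and differed by -0.09 on the log2 scale (95% interval -0.22 to 0.03; adjusted p = 0.951 by limma). The groups overlapped through control siRNA replicate 1, which was below 2 of the ITGB4 siRNA libraries. CAPRIN2, its paralog, was at 4.64 ± 0.305 FPKM with ITGB4 siRNA and 4.52 ± 0.283 with control siRNA (SD, n = 3 each), and the log2 ratio of CAPRIN1 to CAPRIN2 was 3.85 with ITGB4 siRNA and 3.98 with control siRNA, a difference of -0.13 with no overlap. USP10, a deubiquitinase, was at 27.8, 28.1 and 27.6 FPKM with ITGB4 siRNA and 27.1, 28.4 and 26.9 FPKM with control siRNA. Its groups overlapped, with a log2 fold change of 0.02 and an interval of -0.08 to 0.12.

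HABP4 was the least abundant of the 10 genes. It was at 6.50, 6.57 and 6.93 FPKM with ITGB4 siRNA, against 4.48, 4.44 and 4.50 FPKM with control siRNA. The groups were apart, and the control siRNA libraries lay close together. Their SD was 0.644% of the mean, less than the counting error of 6.07% that an average of 271.3 reads gives, so the control spread understates the error of this gene. The means were 6.67 ± 0.235 FPKM with ITGB4 siRNA and 4.47 ± 0.0288 with control siRNA (SD, n = 3 each), from 267 to 438 reads per library, and the log2 fold change was 0.49 (SE 0.0519, 95% interval 0.36 to 0.61). HABP4 (ENSG00000130956) lies on chromosome 9 at 96450201 to 96491336, plus strand, and its last 1096 bases, with the TCGGAGA site, overlap CDC14B on the other strand. CDC14B was at 2.95 FPKM with ITGB4 siRNA and 3.35 with control siRNA, with a mean of 492.7 reads over all libraries. Without strandedness, reads in the overlap cannot be told apart.

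SERBP1 had the highest mean FPKM of the members with control siRNA. It was at 64.0, 66.7 and 66.6 FPKM with ITGB4 siRNA, against 70.3, 78.5 and 74.7 FPKM with control siRNA. Its groups did not overlap, with the ITGB4 siRNA libraries below, in the opposite direction to HABP4. Its log2 fold change, -0.18 (SE 0.0510; interval at 95% confidence -0.30 to -0.05), was not called by limma (adjusted p = 0.659) or limma-voom (adjusted p = 0.389). The log2 ratio of HABP4 to SERBP1 was -3.30, -3.34 and -3.26 with ITGB4 siRNA and -3.97, -4.14 and -4.05 with control siRNA, a difference of 0.75. HABP4 was 9.20% ± 0.235 of their summed FPKM with ITGB4 siRNA and 5.68% ± 0.319 with control siRNA (SD, n = 3 each). SERBP1 has processed pseudogenes in the table, of which SERBP1P1 (8.23 FPKM with ITGB4 siRNA, 9.44 with control siRNA) and SERBP1P5 (6.75 FPKM with ITGB4 siRNA, 6.66 with control siRNA) had reads that may belong to SERBP1. These FPKM do not add to that of SERBP1, since the lengths differ. Mean reads over the 6 libraries were 153.0 for SERBP1P1 and 118.0 for SERBP1P5. SERBP1 had a mean of 7530 reads with ITGB4 siRNA and 8550 with control siRNA. Its level is uncertain to the extent of the pseudogene reads.

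TIA1, a granule protein that also regulates splicing and translation, was at 7.09, 7.07 and 7.43 FPKM with ITGB4 siRNA, against 6.94, 8.85 and 7.89 FPKM with control siRNA. The lowest and the highest libraries were both control siRNA libraries. Its log2 fold change was -0.11 (95% interval -0.31 to 0.09), and that of its paralog TIAL1 was -0.03 (-0.19 to 0.13; limma adjusted p = 0.998 for both). TIA1 overlaps C2orf42 by 39172 bases, nearly its whole length, a gene on the same strand at 2.86 FPKM with ITGB4 siRNA and 3.13 with control siRNA.

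**Figure D2:**
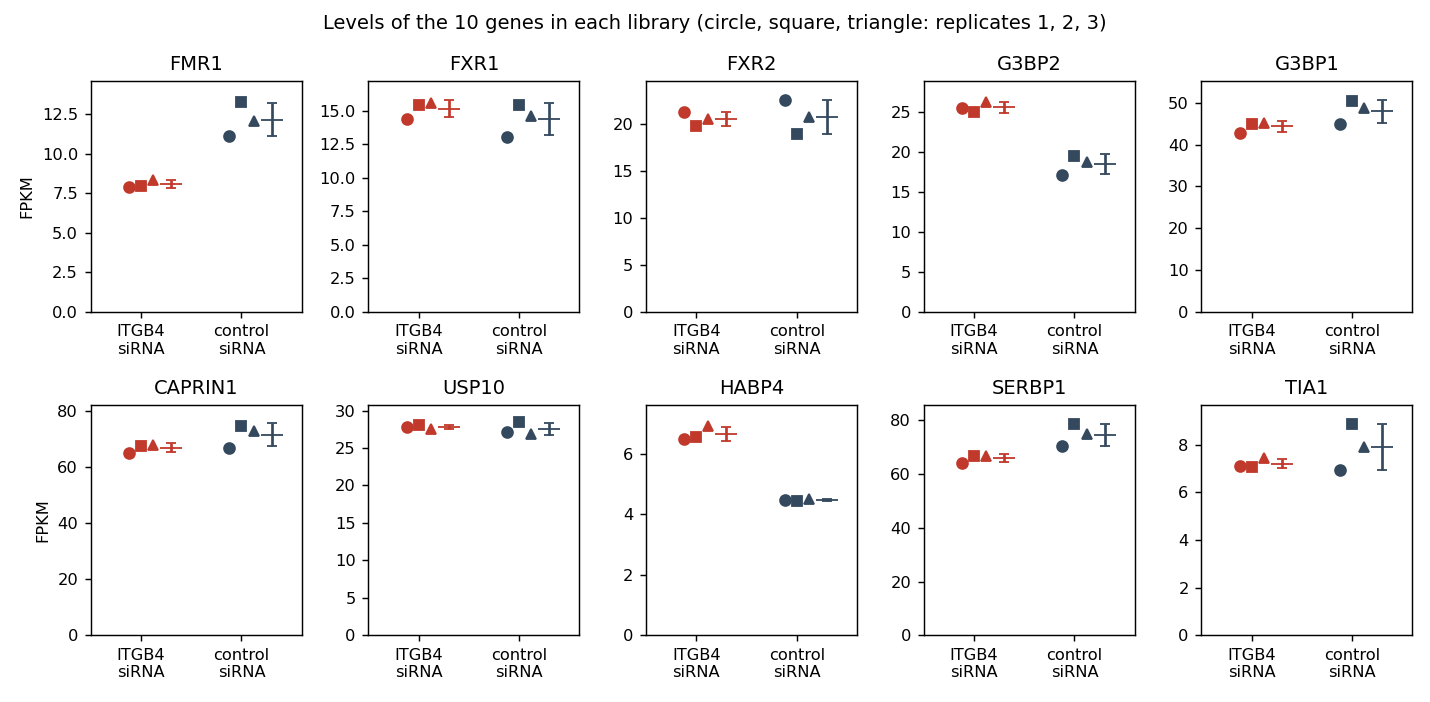
FPKM (y axis, from 0) of the 10 genes in each library, ITGB4 siRNA left and control siRNA right, with the mean and SD of 3 libraries beside the points. The groups do not overlap for FMR1 (7.88 to 8.35 with ITGB4 siRNA, 11.1 to 13.2 with control siRNA), G3BP2 (24.96 to 26.3 with ITGB4 siRNA, 17.1 to 19.5 with control siRNA), HABP4 (6.50 to 6.93 with ITGB4 siRNA, 4.44 to 4.50 with control siRNA) and SERBP1 (64.0 to 66.7 with ITGB4 siRNA, 70.3 to 78.5 with control siRNA).

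**Figure D3:**
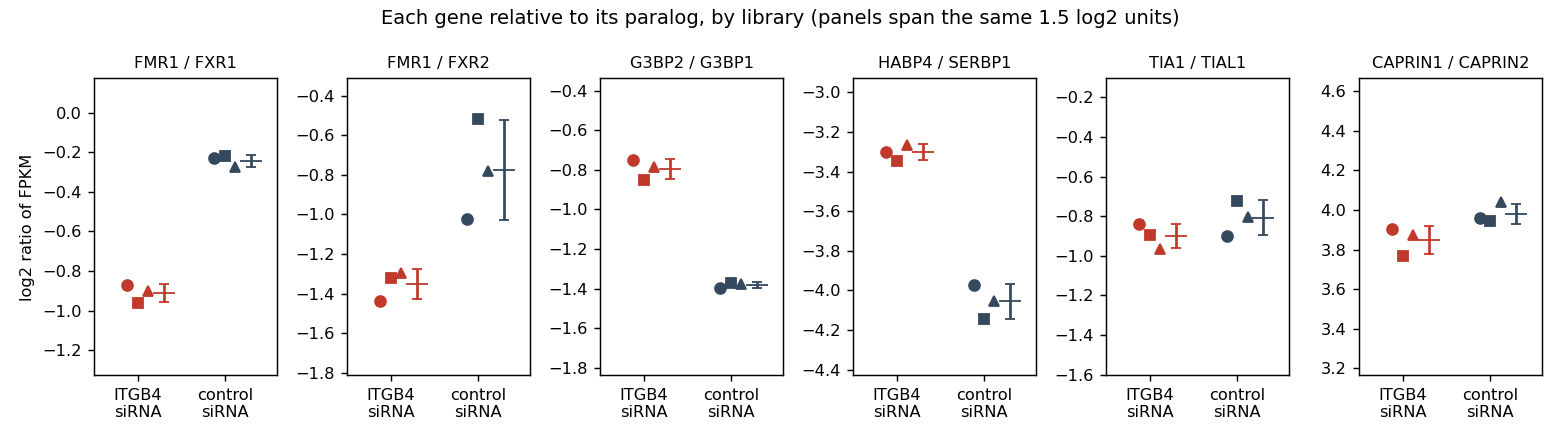
Log2 ratio of FPKM of each gene to its paralog (y axis, each panel spanning the same range) by library, with mean and SD of 3 libraries per group. TIA1 to TIAL1 (mean -0.90 with ITGB4 siRNA, -0.81 with control siRNA) overlaps between the groups, and the other 5 ratios do not, among them FMR1 to FXR1 (-0.91 with ITGB4 siRNA, -0.24 with control siRNA), G3BP2 to G3BP1 (-0.80 with ITGB4 siRNA, -1.38 with control siRNA) and HABP4 to SERBP1 (-3.30 with ITGB4 siRNA, -4.06 with control siRNA). FMR1, G3BP2 and HABP4 were chosen by this comparison, so nothing is read from the number of ratios apart.

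The control siRNA libraries ranked in a similar order in most members. In 7 of the 10 genes control siRNA replicate 1 was the lowest control library, and in 8 of 10 control siRNA replicate 2 was the highest. The share of all genes with this order was not counted, so it is not taken as particular to the members. Outside the set, NUFIP2 (23.6, 27.7 and 25.6 FPKM in control siRNA replicates 1, 2 and 3) and PUM2 (32.4, 38.5 and 35.5) had the same order. So, among others, did PPP1CB (44.7, 54.8 and 50.8) and HSPA8 (444.6, 480.0 and 459.6). EDC4 (16.6, 15.3 and 15.1) did not, and EEF2 (678.4, 591.5 and 637.8) and EIF5A (360.4, 334.2 and 344.5) ran the other way. Among the members, FXR2 also ran the other way, with replicate 1 highest at 22.6 FPKM and replicate 2 lowest at 19.0, and HABP4 hardly varied. The SD of the FMR1 to FXR1 ratio in the control libraries was 0.0291 log2 units, and that of the FMR1 to FXR2 ratio was 0.251.

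By FPKM, the control siRNA means ran in the order SERBP1, CAPRIN1, G3BP1, USP10, FXR2, G3BP2, FXR1, FMR1, TIA1 and HABP4. This order depends on the deposited gene lengths. FXR1 had more reads than FXR2 with control siRNA (mean 2592.3 against 1346.3), over lengths of 12054 and 4331 bases. Among neighbours in this order, the control siRNA ranges overlapped between SERBP1 and CAPRIN1, between FXR2 and G3BP2, and between FXR1 and FMR1. With ITGB4 siRNA only SERBP1 and CAPRIN1 among these neighbours still overlapped. G3BP2 then lay wholly above FXR2 and FMR1 wholly below FXR1.

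Over all 12871 genes with a mean of at least 1 FPKM, limma called 6 genes changed (0.0466%) and 0 of the 10 members at an adjusted p under 0.05. The adjusted p was 0.117 for FMR1, 0.117 for G3BP2 and 0.0671 for HABP4, which stood at places 11, 10 and 7 by unadjusted p. At an unadjusted p under 0.05 there were 4 members, against 5.83% of all genes. Of these, G3BP2 and HABP4 were higher, as were 2.91% of all genes, and FMR1 and SERBP1 were lower, as were 2.92%. The same 4 were the members with groups that did not overlap, against 11.1% of all genes. Nothing is read from these counts, since 3 of the 4 were chosen by this comparison; of the other 7 members, SERBP1 was the 1 with groups apart. On reads recovered from the FPKM, limma-voom called 26 genes (0.202%) and 3 members, FMR1 (log2 fold change -0.58, adjusted p = 0.00246), G3BP2 (0.48, adjusted p = 0.00288) and HABP4 (0.58, adjusted p = 0.0129). Whether FMR1, G3BP2 and HABP4 count as changed therefore depends on the test.

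**Figure D4:**
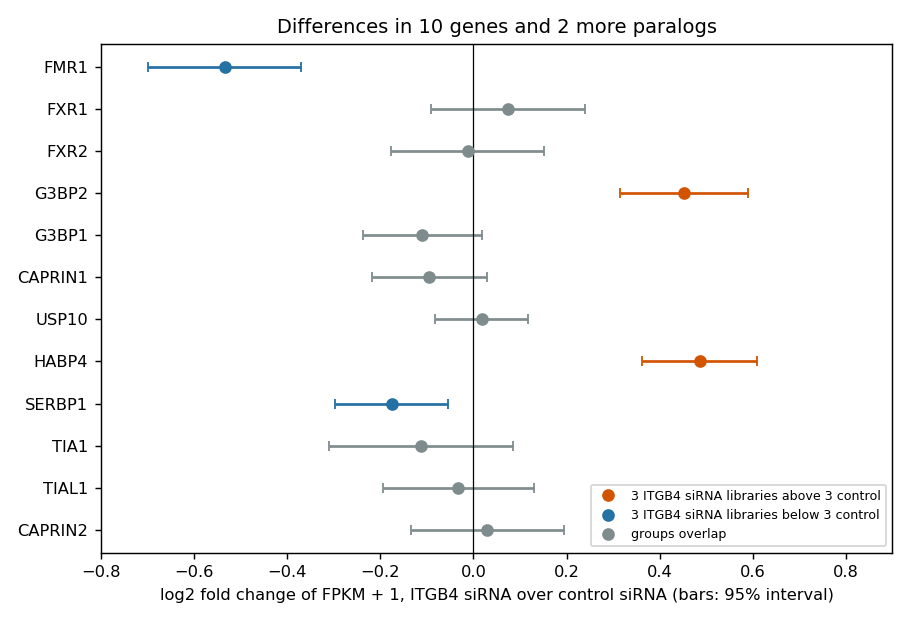
Log2 fold change of FPKM + 1 (ITGB4 siRNA over control siRNA, x axis) with 95% intervals from limma for the 10 genes and the paralogs TIAL1 and CAPRIN2, coloured by whether the 3 libraries of each group overlap. The intervals of G3BP2 (0.31 to 0.59) and HABP4 (0.36 to 0.61) lie above 0, those of FMR1 (-0.70 to -0.37) and SERBP1 (-0.30 to -0.05) lie below it, and the others span it.

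Related genes were described from 6 lists with 89 different genes, of which 86 were tested (TOP3B, ULK2 and HSPB8 were under 1 FPKM). Limma and limma-voom each called 0 of the 86. At an unadjusted p under 0.05 limma had 4 of them, against 5.83% of all genes. Each of the 4 was lower with ITGB4 siRNA (2.92% of all genes), and 0 were higher (2.91% of all genes). By limma-voom there were 5, against 5.82% of all genes. Groups did not overlap for 5 of the 86, against 11.1% of all genes: IGF2BP1, EDC4 and PPP1R15B were lower, and CHD3 and PABPC4 were higher. PABPC4, a poly(A)-binding protein at a log2 fold change of 0.07, was named after its values were seen. The 86 had a median log2 fold change of -0.01, beside -0.003 for all genes tested. Of the 86, 36 were above 0 and 50 below, beside 6242 above and 6629 below for all genes tested. The splits of single lists given next were not tested.

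The list of 40 other stress granule proteins had 15 members above 0 and 25 below, with a median of -0.02 and a range of -0.22 to 0.07. IGF2BP1, an RNA-binding protein that stabilises bound messenger RNAs, was at 14.8 ± 0.194 FPKM with ITGB4 siRNA and 17.4 ± 0.225 with control siRNA (SD, n = 3 each), with an adjusted p of 0.316 by limma and a log2 difference of -0.22. Its groups did not overlap. NUFIP2, a partner of FMRP, was at 22.8 ± 0.845 FPKM with ITGB4 siRNA and 25.6 ± 2.09 with control siRNA (SD, n = 3 each; -0.16), and PUM2, a Pumilio repressor, was at 32.1 ± 1.83 FPKM with ITGB4 siRNA and 35.5 ± 3.05 with control siRNA (SD, n = 3 each; -0.14), both with overlapping groups.

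The 16 processing body genes, for decapping and decay, had 6 above 0 and 10 below, with a median of -0.03. EDC4, a decapping scaffold, was at 14.1 ± 0.723 FPKM with ITGB4 siRNA and 15.7 ± 0.805 with control siRNA (SD, n = 3 each; log2 fold change -0.14), with groups apart. LSM1 (0.11) and DCP2 (0.08), the decapping enzyme, had overlapping groups.

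Among 10 genes of the kinases and the phosphatase of eIF2α, whose phosphorylation blocks initiation and triggers granules, 4 were above 0 and 6 below, with a median of -0.02. PPP1R15B, which directs the phosphatase to eIF2α in unstressed cells, was at 13.6, 13.5 and 12.6 FPKM with ITGB4 siRNA, against 16.7, 16.7 and 17.0 FPKM with control siRNA. It had the lowest fold change of the 6 lists, with groups apart. The log2 difference was -0.32 (95% interval -0.43 to -0.21), with an adjusted p of 0.148 by limma and 0.052 by limma-voom. EIF2AK4, the kinase GCN2, had overlapping groups (0.07), as did PPP1CB, a catalytic subunit (0.07).

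The 6 tested FMRP partners had 1 above 0 and 5 below, with a median of -0.07. Besides NUFIP2, which is in both lists, CYFIP2 was at -0.16 and NUFIP1 at -0.13, with overlapping groups. The 8 tested genes of granule clearance were split 4 and 4, with a median of 0.01, and ZFAND1 (0.12), HSPA8 (0.05) and FAF2 (-0.04) overlapped between the groups. The 7 genes of SERBP1 and HABP4 partners and ribosome dormancy had 6 above 0 and 1 below, with a median of 0.03. CHD3, a chromatin remodeller reported to bind HABP4, was at 6.19 ± 0.436 FPKM with ITGB4 siRNA and 5.51 ± 0.111 with control siRNA (SD, n = 3 each), with an adjusted p of 0.872 by limma and a log2 difference of 0.14. Its groups did not overlap, while those of EEF2 (0.03) and EIF5A (0.04) did.

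Of the 17 genes named from these lists, 7 hold ATTGGAT or TTGGATA in the longest 3′ UTR, and 0 hold TCGGAGA or CGGAGAA. The shares were 17.4% and 4.18% of the 10556 tested protein-coding genes with an annotated 3′ UTR. Of the 7, IGF2BP1, NUFIP2, PUM2, PPP1R15B and NUFIP1 had log2 fold changes below 0, and EIF2AK4 and PPP1CB were above 0, although PPP1CB holds ATTGGAT at 3 sites. Of the 10 with none of the words, 3 were below 0 (EDC4, CYFIP2 and FAF2) and 7 above. The genes were named for their p in the comparison that also picked the words, so nothing is read from these counts.

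**Figure D5:**
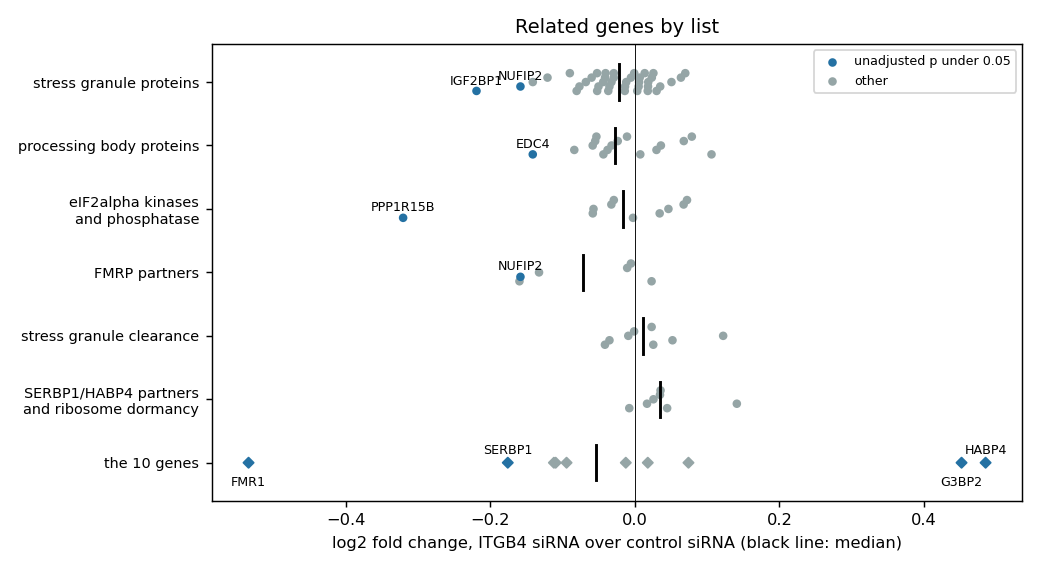
Log2 fold change (ITGB4 siRNA over control siRNA, x axis) of each tested gene of the 6 lists and of the 10 genes, with medians as black lines and genes at an unadjusted p under 0.05 in blue. PPP1R15B (-0.32) and IGF2BP1 (-0.22) are the lowest points of the lists, and the list medians lie between -0.07 and 0.03.

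Genes with the most similar profile over the 6 libraries were sought among 6816 other protein-coding genes with a mean of at least 5 FPKM, by Pearson's r of log2(FPKM + 1). With 6 libraries in 2 groups, these genes share the difference between the groups, and r is given as a description. For FMR1 they were OSTM1 (r = 0.998), VAMP7 (0.988) and ID2 (0.984), with log2 fold changes of -0.43, -0.34 and -0.24. For G3BP2 they were ARHGAP21 (0.999), ERLIN1 (0.991) and MESD (0.988), with log2 fold changes of 0.38, 0.14 and 0.42. For HABP4 they were PTPRJ (0.998), GANAB (0.992) and FAM32A (0.987), at 0.30, 0.48 and 0.23, of which GANAB was called by limma (adjusted p = 0.0137). Of these 9 genes, OSTM1 holds TTGGATA at 2 sites of its longest 3′ UTR and MESD holds CGGAGAA once, and the other 7 hold none of the 4 words.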

How the data were processed

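The authors deposited FPKM per gene and library on GRCh38, per the file headers and the submitters' processing notes, which name DESeq2 and edgeR without their role. The aligner, counting tool and strandedness are not given in the sources used here. Gene lengths are the authors' deposited values. FPKM times gene length, after scaling by 1 factor per library (what 1 read adds, taken from the lowest values and the sum), gave whole reads for 100% of the values at a tolerance of 0.01. No column of per-sample values was without a sample.

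Groups came from the sample titles. The main test was limma 3.58.1 (R 4.3.3) with a mean-variance trend on log2(FPKM + 1) for genes with a mean of at least 1 FPKM, with 1 coefficient for the siRNA. Tests were two-sided, with Benjamini-Hochberg adjustment over all 12871 genes and calls at an adjusted p under 0.05. Limma was tested on simulated data. Members had 267 to 9263 reads per library; counting error is the square root of the reads, and 3 libraries a group limit the precision. Where the replicates do not come from separate cultures, p-values measure technical spread.

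The members, lists and alternatives were chosen with earlier results of these data known. Named genes were the members, TIAL1, CAPRIN2, ITGB4, up to 3 genes per list with the smallest unadjusted p and the 3 most similar genes by Pearson's r. VIL1, KRT18 and the genes that overlap members or resemble them were named after their values were seen. The words were counted in the longest 3′ UTR per gene of GENCODE release 29, in Python 3.11.15.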

Additional observations from a re-analysis of the deposited data

How the results depend on the processing

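Of 130 comparisons of members under alternatives, 123 kept direction and side of the threshold, 5 gained a call and 2 turned sign. FXR2 turned sign without ITGB4 siRNA replicate 2 (0.01) and without control siRNA replicate 1 (0.047), with a range of -0.074 to 0.047 when leaving out 1 library. Of the 10 members, limma called 1, HABP4, with a mean of at least 5 FPKM (adjusted p = 0.0436) or as TPM (0.0486), limma-voom called 3, and no other alternative called any. All genes called numbered 0 without the low-value filter (1356 at an unadjusted p under 0.05; more genes are tested) and 26 by limma-voom, 5 of them shared with the 6. The cause of the difference from limma-voom was not tested. Leaving out 1 library gave 0 to 7 genes and no called member: 0 genes without ITGB4 siRNA replicate 1, 2 or 3 and 3 without control siRNA replicate 3, with fewer libraries in the fit. FMR1 then ran from -0.59 to -0.48, G3BP2 from 0.40 to 0.49 and HABP4 from 0.46 to 0.50.

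The replicate block gave 0 genes (1064 at an unadjusted p under 0.05) and 0 members. Deviations of same-numbered libraries correlated at 0.173, 0.102 and -0.01, so the numbers were not taken as pairs; library 3 did not match its own number best. With a pseudocount of 1 the FMR1 to FXR1 ratio differed by -0.61 and HABP4 to SERBP1 by 0.66. Without 1 library the ratios differed by -0.69 to -0.64 (FMR1 to FXR1), -0.70 to -0.45 (FMR1 to FXR2), 0.56 to 0.61 (G3BP2 to G3BP1), 0.71 to 0.80 (HABP4 to SERBP1), -0.14 to -0.05 (TIA1 to TIAL1) and -0.16 to -0.09 (CAPRIN1 to CAPRIN2).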
